A study of Mus musculus with 19 samples.

Results

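The cytochromes P450 of families 1, 2 and 3 are described here in mouse liver. The members are all probes whose gene symbol begins with Cyp1, Cyp2 or Cyp3 followed by a subfamily letter: 56 probes of 55 genes, out of 23568 probes of 18788 genes on the array. Liver RNA came from 4 groups of mice aged 20 weeks: 5 mice without 5-lipoxygenase (KO) on chow, 5 wild-type B6 mice (WT) on chow, 5 KO mice on an atherogenic diet and 4 WT mice on that diet. The diet contained fat, cholesterol and cholate and was given for 16 weeks. On each 2-colour array 1 mouse was set against a pool of WT livers of its own diet, 5 mice for chow and 4 for the atherogenic diet. The labels do not say how the knockout allele was made, whether WT mice were littermates, or which sex the mice were. Each sample is 1 mouse, and p-values measure the spread between these mice.

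P450s of families 1 to 3 are haem-containing monooxygenases of the endoplasmic reticulum. They oxidise drugs, pollutants, steroids, bile acids and fatty acids with electrons from P450 reductase and cytochrome b5. In hepatocytes Cyp1 genes are induced through the aryl hydrocarbon receptor, Cyp2b and several Cyp2c genes through the receptor CAR, and Cyp3a genes through the receptor PXR. Many Cyp2c and Cyp2j enzymes convert arachidonic acid, the fatty acid that 5-lipoxygenase turns into leukotrienes, to epoxides and hydroxy acids. Several mouse members, among them Cyp2b9, Cyp2b13, Cyp2c40, Cyp2c69 and the Cyp3a41 genes, are known to be expressed more in female than in male liver. Neighbouring genes of a subfamily arose by duplication and share long stretches of sequence, so a probe can also bind a paralog's RNA. The probes' own sequences were not used here.

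A 9-base motif that the hepatocyte factor HNF4A is known to bind, CAAAGTCCA, lay upstream of 9 of the 47 members with a window in the RefSeq promoter table (19.1%). Across all 32851 windows of 300 bases, 250 before and 50 after the annotated start, 0.475% held it on either strand. Of the 9, Cyp2c40, Cyp2c69, Cyp2c70 and Cyp3a11 passed a test of genotype or diet below. Cyp2c65, Cyp2c68, Cyp3a16 and the tested Cyp3a41a probe passed none, and Cyp3a41b was not tested. Members that passed without the motif in their windows include Cyp2c39 and Cyp2c55. The stretches around the motif are shown for comparison: Cyp2c40 and Cyp2c69 share all 69 bases, while Cyp2c70 matches Cyp2c69 at 34.8% of them. The coordinates are those of build GRCm38.p6, all 8 genes lie on the minus strand except Cyp2c65, and capitals mark the motif.
Cyp2c40, chr19:39812821-39812889, motif from -45: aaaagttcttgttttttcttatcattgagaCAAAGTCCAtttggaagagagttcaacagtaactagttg
Cyp2c69, chr19:39886806-39886874, motif from -75: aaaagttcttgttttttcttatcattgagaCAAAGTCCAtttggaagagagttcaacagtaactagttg
Cyp2c68, chr19:39741140-39741208, motif from -77: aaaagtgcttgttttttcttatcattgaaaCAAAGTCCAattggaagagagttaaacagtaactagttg
Cyp2c65, chr19:39060860-39060928, motif from -116: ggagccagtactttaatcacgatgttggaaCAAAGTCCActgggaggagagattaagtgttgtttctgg
Cyp2c70, chr19:40187312-40187380, motif from -64: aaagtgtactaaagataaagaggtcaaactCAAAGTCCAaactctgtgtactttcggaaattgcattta
Cyp3a11, chr5:145879925-145879993, motif from -109: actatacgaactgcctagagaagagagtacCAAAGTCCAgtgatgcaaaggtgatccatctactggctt
Cyp3a16, chr5:145469784-145469852, motif from -99: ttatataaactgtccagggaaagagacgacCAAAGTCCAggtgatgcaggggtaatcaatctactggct
Cyp3a41a, chr5:145720193-145720261, motif from -95: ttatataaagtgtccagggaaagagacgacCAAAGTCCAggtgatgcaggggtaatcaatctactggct
Cyp3a41b carries the same 69 bases as Cyp3a41a, and Cyp3a16 differs from them at 1 base, while Cyp3a11 matches Cyp3a41a at 43.5%. Cyp2c68 matches Cyp2c69 at 94.2%.

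The other motifs were searched on both strands of the same windows. GCGTG, the core of the site bound by the aryl hydrocarbon receptor, was in 9 of 47 members, Cyp1a1 and Cyp1b1 among them, and in 32.4% of all windows. TATAAA was in 24 of 47 members and 13.6% of all windows. AGTTCA, the half-site of several nuclear receptors, was in 8 of 47 members and 14% of all windows. TTCNNNGAA, the form of a STAT site, was in the windows of Cyp2j11-ps and Cyp2j12-ps and in 8.3% of all windows. No member's window held CAAAGTTCA (0.39% of all windows), TTGCGCAA (0.183%), the HNF1 palindrome (0.00913%) or the DR4 repeats of AGGTCA (0.0152%) and of AGTTCA (0.0122%), the last of which contains AGTTCA. No match says only that these letters are not in these windows.

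Of the 56 probes, 53 had at least 3 values in every group and entered the tests, which covered 23344 probes. The probes of Cyp2a4 and Cyp3a41b and 1 of 2 probes of Cyp3a41a were blank in 11 of 19 mice. Where values were listed they were very bright, 28.1 to 51.1 for Cyp2a4, 8.72 to 49.3 for Cyp3a41b and 9.13 to 48.2 for that Cyp3a41a probe, so these genes are not described as low. Cyp2e1 and Cyp2f2, with a higher mean deposited intensity than 99.6% and 99.8% of probes, were each blank in 3 mice. At the other end, intensities of 0.01 or more are rounded to 2 decimals, and many log2 ratios of Cyp1b1, Cyp2c65, Cyp2s1, Cyp2u1 and Cyp2w1 were exactly 0.

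Across arrays 22763 to 23511 probes had a value. Of the hepatocyte marker list 6 probes were tested, and all were brighter than at least 80.7% of probes. Alox5, the deleted gene, had 1 dim probe with intensities of 0.03 to 0.07 in chow KO and 0.03 to 0.05 in chow WT mice, and 0.06 to 0.11 in atherogenic KO (4 of 5 mice measured) and 0.05 to 0.09 in atherogenic WT mice. It was not lower in KO mice, and the labels do not place the probe relative to the deleted part, so it does not check the genotype labels. Mice are named A to E within a group for reference only. Chow KO mouse D stood apart, with an SD of log2 ratios over all probes of 1.01, against 0.318 to 0.538 in the other chow KO mice. Over the members its SD was 1.43. The counts of members called, over all tested members, that use the chow KO group are therefore given without mouse D as well. So are printed differences that lose or gain a call without it, and a part of those that move by over 1.5 times. Counts within a subfamily or a gene list, and values of the other gene lists, are given with all mice only.

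Genotype was compared through the log2 ratio of each mouse to the WT pool of its diet, so that a difference of 1 is a doubling. On chow the members that differed belonged to Cyp2c. Cyp2c39, a retinoic acid hydroxylase, and Cyp2c69, a female-predominant enzyme, were lower in KO livers, and no member was called higher. They were 2 of 53 probes with an adjusted p under 0.05 (limma, Benjamini-Hochberg over all probes), against 1.13% of all probes in either direction, 0.643% higher and 0.484% lower.

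Cyp2c39 had log2 ratios of -1.0, -0.90, -0.53, -1.26 and -0.79 in chow KO mice, against -0.14, 0.06, -0.40, 0.00 and 0.27 in chow WT mice. The groups did not overlap, and Cyp2c39 fell by 0.86 ± 0.17 in log2 units (± SE, limma adjusted p = 0.0331). Cyp2c69 had -0.77, -1.08, -0.63, -2.01 and -1.17 in chow KO mice, against 0.34, -0.47, -0.25, -0.17 and -0.08 in chow WT mice. It too had no overlap, with mouse D lowest, and fell by 1.01 ± 0.20 (adjusted p = 0.0347, limma). Cyp2c40, which makes hydroxy acids of arachidonic acid, had -0.62, -1.55, -0.69, -3.44 and -1.71 in chow KO mice, against -0.11, -0.48, -0.22, -0.36 and -0.02 in chow WT mice. Every KO mouse lay below every WT mouse, but the difference of -1.36 ± 0.37 missed the threshold (adjusted p = 0.0577, limma). Cyp2c54, an arachidonic acid epoxygenase, was the fourth Cyp2c probe without overlap. Its ratios were -0.65, -0.71, -0.62, -2.19 and -0.68 in chow KO mice, against -0.34, -0.34, 0.57, -0.39 and 0.33 in chow WT mice, a difference of -0.94 ± 0.32 (adjusted p = 0.095, limma).

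Of the 14 Cyp2c probes 13 lay below 0 on chow, with a median of -0.28. Above 0 were 19 of 53 members, against 50.2% of all probes, and the median over members was -0.17, against 0.00 over all probes. Lower without overlap were 4 of 53 members, against 1.65% of all probes, and higher without overlap was 1, against 1.74%. That 1 was Cyp2a22, which had 1.20, 0.97, 1.02, 0.71 and 1.25 in chow KO mice, against 0.47, -0.63, 0.09, 0.09 and -0.49 in chow WT mice. Its difference of 1.12 ± 0.29 was just short of the threshold (adjusted p = 0.0567, limma). At an unadjusted p under 0.05 there were 19 of 53 members, against 27.4% of all probes.

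Without chow KO mouse D, 1 member was called on chow, against 0.351% of all probes. Cyp2c69 then differed by -0.79 (adjusted p = 0.0386, limma), Cyp2c39 by -0.76 (adjusted p = 0.0541), Cyp2c40 by -0.90 (adjusted p = 0.071) and Cyp2c54 by -0.63 (adjusted p = 0.21). The count of members called was also 1 without chow KO E (0.356% of all probes) or chow WT C (0.291%). It was 15 without chow KO A, where 16.5% of all probes were called, and 4 without chow KO C, where 5.23% were. It was 0 without chow KO B (0.0171%) or chow WT B, D or E (0.0129% each). Cyp2c39 also lost its call without chow KO B (adjusted p = 0.0802), or chow WT B (0.0766), D (0.0858) or E (0.104). Cyp2c69 lost its call without chow KO B (adjusted p = 0.0832) or E (0.0624), or chow WT B or C (0.0586 for both), D (0.0858) or E (0.104).

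Cell type markers on chow were read as mean log2 ratios per mouse. The 6 hepatocyte probes had 0.00, 0.10, -0.20, -1.40 and -0.55 in chow KO mice A to E. In chow WT mice A to E they had -0.44, -0.11, 0.32, 0.06 and 0.05, and 0 of 6 were called. The 9 neutrophil probes had 0.49 to 2.04 in chow KO mice, against -0.29 to 0.30 in chow WT mice, and 0 of 9 were called, against 1.13% of all probes. The summed intensity of the neutrophil probes was 0.973 to 5.17 in chow KO mice and 0.507 to 1.08 in chow WT mice, which overlap. In whole liver, fewer cells of a type and less RNA per cell cannot be told apart, and the part of these markers in the P450 differences was not tested.

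On the atherogenic diet 0 of 53 members passed the test (limma), against 0.0214% of all probes (0.0129% higher and 0.00857% lower), and 13 had an unadjusted p under 0.05, against 10.7%. Above 0 were 32 of 53 members, against 50.4% of all probes. Cyp2c39 differed by -0.13 (95% interval -0.50 to 0.24), Cyp2c69 by 0.05 (-0.41 to 0.51) and Cyp2c40 by -0.09 (-0.91 to 0.73). Cyp2c54 had 1.47, 1.03, 0.83, 0.61 and 1.1 in atherogenic KO mice, against 0.04, -0.23, 0.98 and -0.48 in atherogenic WT mice. WT mouse C lay within the KO range, and the difference was 0.93 ± 0.33 (adjusted p = 0.335, limma). Cyp2c50, another epoxygenase, had 1.47, 1.42, 0.90, 0.86 and 1.20 in atherogenic KO mice, against 0.03, 0.01, 0.91 and -0.69 in WT mice of that diet. It differed by 1.11 ± 0.37 (adjusted p = 0.294, limma), and again WT mouse C overlapped.

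The 1 member without overlap on that diet was Cyp2d13, with 1.00, 0.75, 0.98, 0.66 and 0.75 in atherogenic KO mice, against -0.22, 0.44, 0.00 and -0.27 in WT mice. Higher without overlap were 2.33% of all probes, and lower without overlap were 0 of 53 members and 2.78% of all probes. The difference of 0.84 ± 0.18 had an adjusted p of 0.121 (limma). Of the acute-phase list all 13 probes lay below 0 in KO against WT mice on this diet, with 1 called lower. Their summed intensity was 43.4 to 69.3 in KO and 61.1 to 158 in WT mice, and its part in the P450 values was not tested. The count was 1 member without atherogenic WT B, against 0.0857% of all probes, and 0 without any other mouse.

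**Figure D1:**
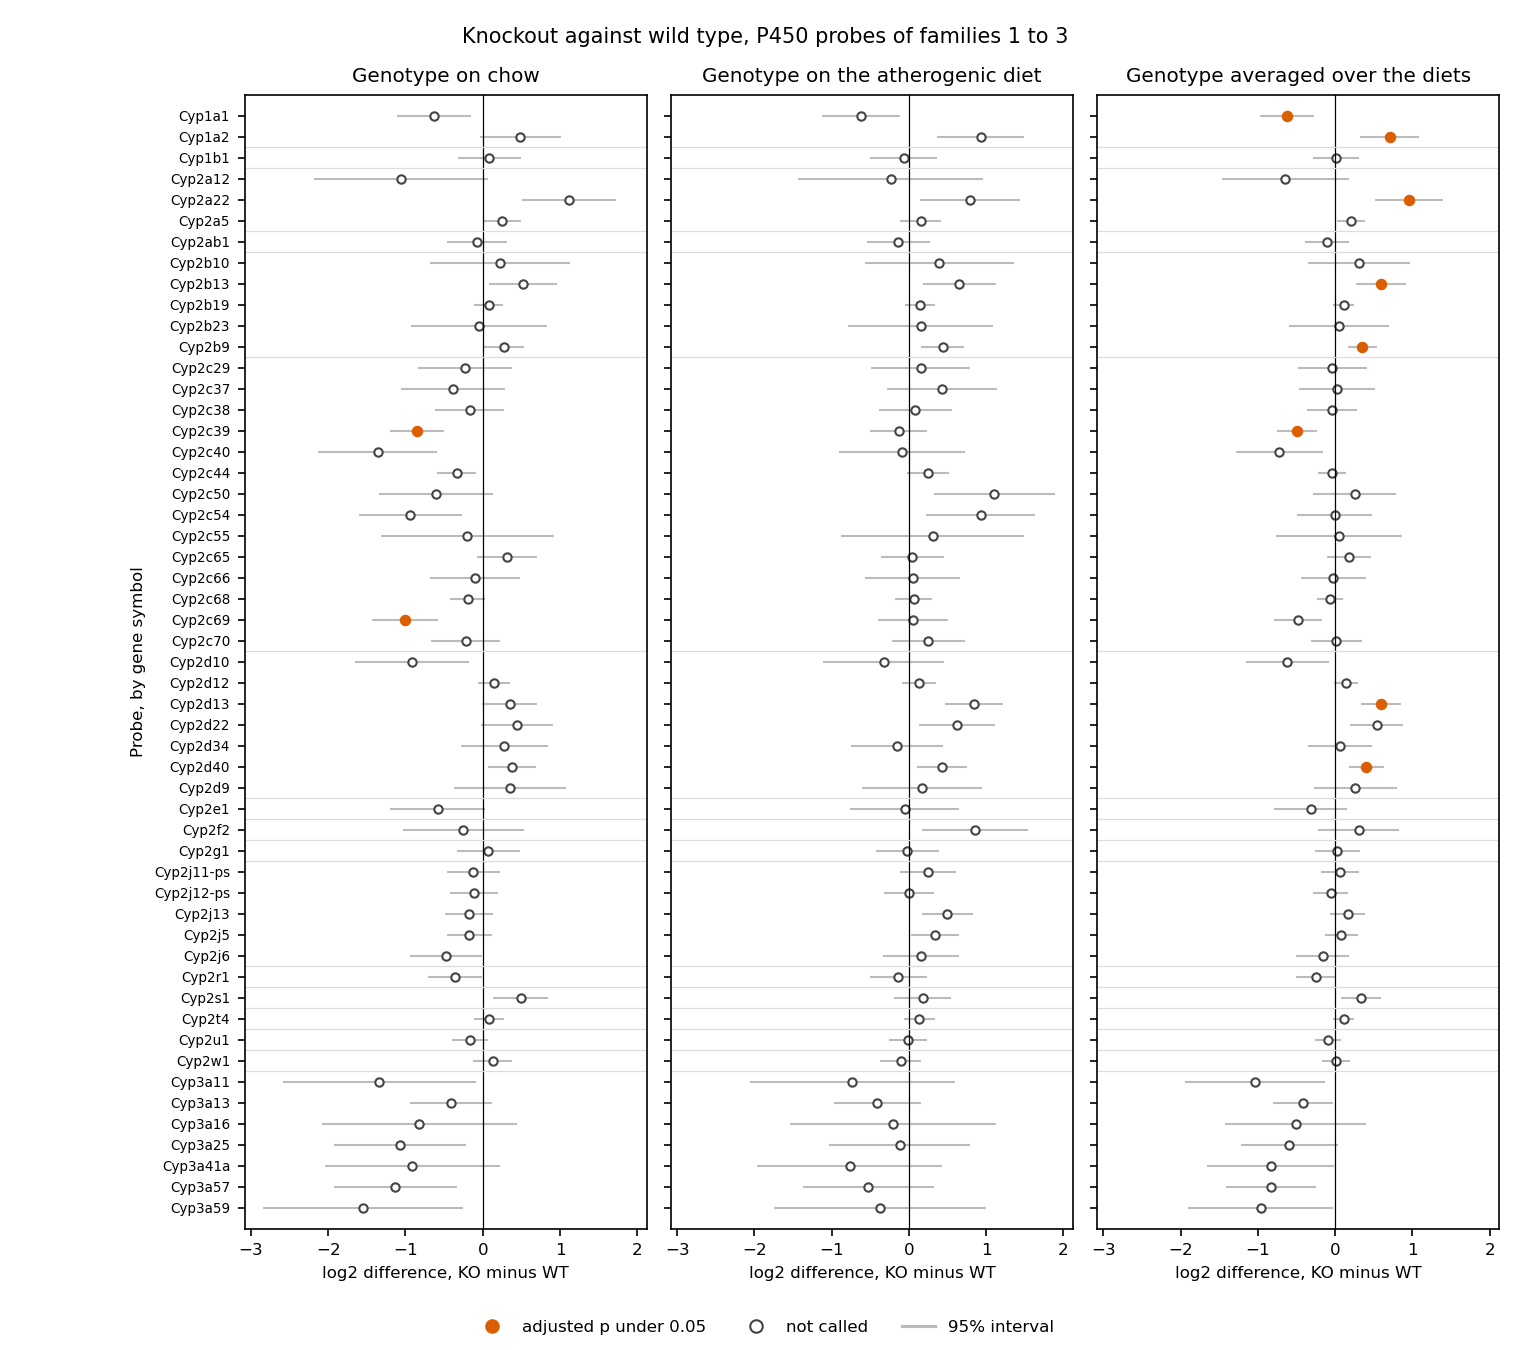
Log2 difference, KO minus WT, of each of the 53 tested probes (rows, by subfamily) on chow, on the atherogenic diet and averaged over the diets, with 95% intervals. Filled points passed an adjusted p under 0.05: 2 on chow, 0 on the atherogenic diet and 8 in the average, and all 7 Cyp3a points lie left of 0 in each panel.

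Whether the genotype difference depended on the diet was tested as an interaction, the difference on the atherogenic diet minus that on chow. Here 0 of 53 members passed (limma), as did 0% of all probes, and 9 members had an unadjusted p under 0.05, against 5.77% of all probes. Cyp2c54 had the lowest p of the members, with an interaction of 1.86 ± 0.46 (unadjusted p = 0.000765, adjusted p = 0.597). Cyp2c50 followed in size with 1.71, then Cyp2c40 with 1.27, Cyp3a59 with 1.18, Cyp2f2 with 1.1 and Cyp2c69 with 1.06. Leaving out chow KO mouse D, Cyp2c40 had 0.81 and Cyp3a59 0.44, while Cyp2c54 had 1.56 (adjusted p = 0.348, limma), and the count stayed at 0. Above 0 were 42 of 53 members and 13 of 14 Cyp2c probes, against 50.6% of all probes, and members share the same mice. A difference between the diets in the genotype effect was thus not called for any member.

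Averaged over the diets, which uses all 19 mice, 8 of 53 members passed (limma), against 6.76% of all probes. Higher in KO livers were 6, from Cyp1a, Cyp2a, Cyp2b and Cyp2d, against 3.89% of all probes, and lower were 2, against 2.87%. At an unadjusted p under 0.05 there were 19, against 27.8%, and 28 of 53 lay above 0, against 51.2%. The median was 0.01 over members and over all probes.

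**Figure D2:**
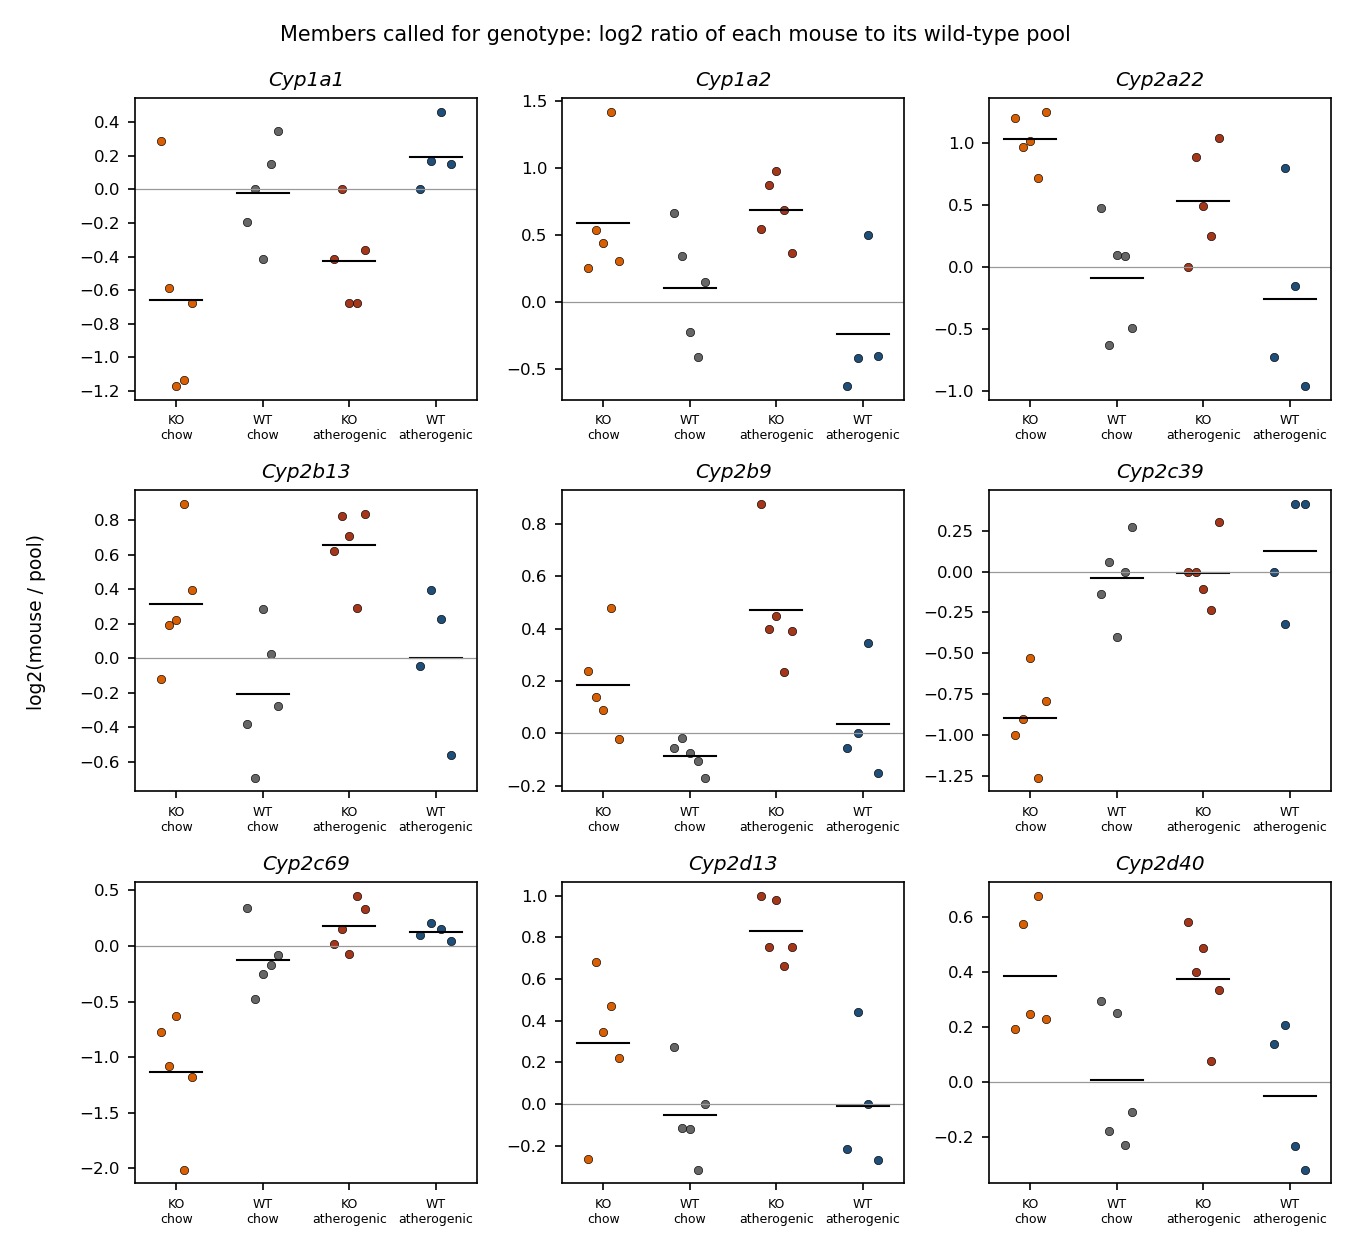
Log2 ratio of each mouse to the WT pool of its diet for the 9 members called for genotype on chow or in the average, with 1 point per mouse and a line at the group mean. KO groups stand left of their WT groups, and Cyp2c39 and Cyp2c69 separate on chow but not on the atherogenic diet.

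Within Cyp1, the aryl hydrocarbon receptor's targets went opposite ways. Cyp1a2, the main Cyp1 enzyme of liver, had 0.26, 0.54, 0.44, 1.42 and 0.31 in chow KO mice, against 0.66, 0.35, -0.22, -0.41 and 0.15 in chow WT mice. Under the atherogenic diet it had 0.55, 0.87, 0.98, 0.69 and 0.36 in KO mice, against -0.63, -0.41, 0.50 and -0.41 in WT mice. The groups overlapped on both diets, and Cyp1a2 rose by 0.71 ± 0.18 in the average (adjusted p = 0.0308, limma). Cyp1a1, which oxidises polycyclic hydrocarbons, had 0.29, -0.58, -1.17, -1.14 and -0.68 in chow KO mice, against -0.19, 0.00, -0.41, 0.15 and 0.35 in chow WT mice. With that diet it had -0.41, 0.00, -0.68, -0.68 and -0.36 in KO mice, against 0.00, 0.17, 0.46 and 0.15 in WT mice. It fell by 0.63 ± 0.17 in the average (adjusted p = 0.0335, limma), and its probe was brighter than only 51.1% of probes. Cyp1b1, mostly an extrahepatic enzyme, differed by 0.01 (95% interval -0.29 to 0.31).

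In Cyp2a, Cyp2a22 rose by 0.96 ± 0.21 in the average (adjusted p = 0.0197, limma). Atherogenic values were 0.00, 0.89, 0.49, 0.25 and 1.04 in KO mice, against -0.73, 0.80, -0.15 and -0.96 in WT mice. Cyp2a5, the coumarin hydroxylase, was 0.20 ± 0.09 higher without passing (adjusted p = 0.141). Cyp2a12, a steroid and bile acid hydroxylase and the brightest tested probe of Cyp2a, differed by -0.65 (95% interval -1.47 to 0.17), with chow KO mouse D at -3.96. Both female-predominant members of Cyp2b rose. Cyp2b9 was among the brighter probes of the array, and its normalised intensity was 15.5 to 18.6 in chow KO and 14.4 to 18.1 in chow WT mice. It rose by 0.35 ± 0.09 in the average (adjusted p = 0.0297, limma), with ratios of 0.23 to 0.88 in atherogenic KO and -0.15 to 0.35 in atherogenic WT mice. Cyp2b13 rose by 0.59 ± 0.15 (adjusted p = 0.0317, limma). Its ratios were 0.62, 0.83, 0.71, 0.29 and 0.84 in atherogenic KO mice, against -0.04, 0.39, 0.23 and -0.56 in WT mice. Cyp2b10, the classical CAR target, differed by 0.31 (95% interval -0.35 to 0.97), with the highest ratios in chow KO A (1.51), atherogenic KO A (1.57) and chow WT B (1.18).

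In Cyp2d, Cyp2d13 rose by 0.59 ± 0.12 in the average (adjusted p = 0.0159, limma), and on chow it had -0.26, 0.68, 0.35, 0.47 and 0.22 in KO mice, against 0.28, -0.11, -0.12, -0.32 and 0.00 in WT mice. Cyp2d40 rose by 0.40 ± 0.11 (adjusted p = 0.0337, limma), with ratios of 0.19 to 0.68 in chow KO and -0.23 to 0.30 in chow WT mice. Cyp2d22, the brightest of the subfamily, was 0.54 ± 0.16 higher and missed the threshold (adjusted p = 0.0531). Cyp2d9, a male-predominant testosterone hydroxylase, differed by 0.26 (95% interval -0.27 to 0.80). Of the 7 Cyp2d probes 6 lay above 0.

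In Cyp2c, Cyp2c39 alone was called in the average, where it fell by 0.50 ± 0.12 (adjusted p = 0.0259, limma), and Cyp2c29, a CAR-inducible epoxygenase, differed by -0.04 (95% interval -0.48 to 0.41). The alcohol-oxidising Cyp2e1 differed by -0.32 (-0.79 to 0.15) over the 16 mice with a value, and the naphthalene-oxidising Cyp2f2 by 0.30 (-0.22 to 0.83), also over 16. Cyp2j5, an epoxygenase of liver and kidney, differed by 0.08 (-0.13 to 0.30) and Cyp2r1, which hydroxylates vitamin D, by -0.25 (-0.50 to 0.00). Cyp2s1 differed by 0.33 ± 0.12 (adjusted p = 0.0968). Cyp2ab1 (-0.11), Cyp2g1 (0.03), Cyp2t4 (0.11), Cyp2u1 (-0.09) and Cyp2w1 (0.01) all had adjusted p-values over 0.05.

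Without chow KO mouse D 10 members passed in the average, against 9.35% of all probes. Cyp2d22 (0.43, adjusted p = 0.0486, limma) and Cyp2c69 (-0.37, adjusted p = 0.0423) then passed, while Cyp2a12 differed by -0.33 and Cyp3a13 by -0.27. In that fit Cyp2c29 differed by 0.06 and Cyp2ab1 by -0.18. The count was 14 without chow KO A, where 15.5% of all probes were called, and 3 without chow KO B (2.79%). It was 5, 4 and 2 without chow WT B, D and E (3.65%, 2.91% and 2.52%). Without atherogenic KO B, C and D it was 5, 2 and 5 (4.22%, 2.4% and 3.02%), and without atherogenic WT A and D it was 1 and 2 (1.17% and 1.91%). Cyp2d13 kept its call without each of the 19 mice (highest adjusted p = 0.0455). Cyp2a22 lost it only without atherogenic WT A (adjusted p = 0.0524). Cyp2c39 lost it without chow WT E, atherogenic KO C or D, or atherogenic WT A or D (0.0516 to 0.0647). Cyp2b9 lost it without chow KO B, chow WT D or E, atherogenic KO C, or atherogenic WT A or D (0.0502 to 0.0728). Cyp2b13 lost it without chow KO B, chow WT B or E, atherogenic KO B or C, or atherogenic WT A or D (0.052 to 0.0768). Cyp1a1 lost it without chow KO B, chow WT B, D or E, atherogenic KO C or D, or any atherogenic WT mouse (0.0512 to 0.0694). Cyp1a2 lost it without chow KO B, chow WT C, D or E, atherogenic KO B, C or D, or atherogenic WT A, B or D (0.0503 to 0.0743). Cyp2d40 lost it without chow KO B, chow WT B, D or E, atherogenic KO A, B or C, or atherogenic WT A, C or D (0.0535 to 0.0813). Under quantile normalisation of the ratios Cyp1a1, Cyp1a2, Cyp2b9, Cyp2b13, Cyp2c39 and Cyp2d40 lost their calls (adjusted p = 0.0699 to 0.155, limma). After loess within each array Cyp2b9 differed by 0.22 (adjusted p = 0.113). Robust eBayes with a trend lost Cyp1a1 (0.0524) and Cyp2d40 (0.0522), and the replicate number as a block lost Cyp2d40 (0.0503).

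The Cyp3a probes varied widely between mice. All 7 probes lay below 0 in KO against WT livers on each diet, and 0 of 7 were called on chow, on the atherogenic diet or in the average (limma). At an unadjusted p under 0.05 there were 4 of 7 on chow, 0 on the atherogenic diet and 5 in the average. Over all probes the shares were 27.4%, 10.7% and 27.8%, and the 7 probes share the same mice. Cyp3a11, the main drug-metabolising Cyp3a of mouse liver and the classical PXR target, had -0.18, -2.88, -1.14, -3.27 and -2.82 in chow KO mice, against -2.16, 0.10, -1.02, -0.75 and 0.22 in chow WT mice. After the atherogenic diet it had 0.22, -0.05, -1.60, -1.51 and 0.68 in KO mice, against 0.41, 0.70, -0.26 and 0.28 in WT mice. Single mice of the same group thus differed by more than the groups did, and the average difference was -1.04 ± 0.43 (95% interval -1.95 to -0.13, adjusted p = 0.135).

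Cyp3a25, the brightest, had -0.09, -1.03, -0.54, -3.32 and -0.98 in chow KO mice, against -0.86, 0.08, -0.11, 0.02 and 0.24 in chow WT mice. Cyp3a41a is a female-predominant gene whose upstream sequence is printed above. Its tested probe had -0.48, -2.46, -1.44, -1.63 and -2.87 in chow KO mice, against -2.05, 0.28, -1.40, -1.14 and -0.03 in chow WT mice. Its brighter probe, left out of the tests for blanks, differed from this. That probe had -0.52, -0.33, -2.13 and -1.10 in chow KO B, C, D and E, and -0.10 and -0.45 in chow WT A and D. Chow WT A, the lowest of its group for Cyp3a11, was also the lowest for the tested Cyp3a41a probe and for Cyp3a25, Cyp3a57 and Cyp3a59. Cyp3a16, known mainly from fetal and female liver, departed from this: in chow WT mice it had 1.16 and 1.11 in A and B, against -2.14, -2.14 and -1.89 in C, D and E. In chow KO mice it had -0.68, -2.52, -1.94, -1.26 and -1.58, all below chow WT A and B. Cyp3a13, which is also an intestinal enzyme, had the smallest average difference of the 7, -0.41 (95% interval -0.80 to -0.02, adjusted p = 0.16). The mean ratio of the 7 probes was -1.49 ± 0.90 in chow KO and -0.45 ± 0.53 in chow WT mice (SD, n = 5 each). It was -0.25 ± 0.60 in atherogenic KO (n = 5) and 0.19 ± 0.24 in atherogenic WT mice (n = 4). Without chow KO mouse D the chow difference of Cyp3a11 was -1.04 (adjusted p = 0.375), that of Cyp3a25 -0.54 (0.199) and that of Cyp3a59 -0.82 (0.289), where with it they were -1.34, -1.07 and -1.55.

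**Figure D3:**
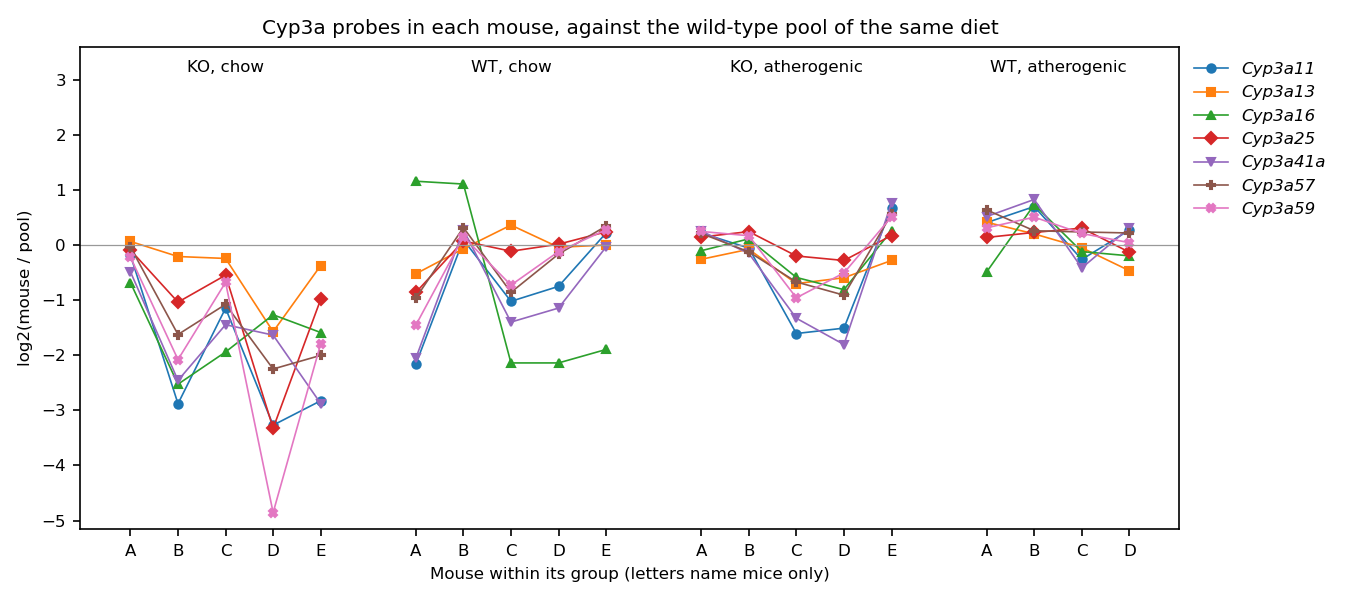
Log2 ratio of each mouse to the WT pool of its diet for the 7 tested Cyp3a probes, with 1 line per probe and 1 position per mouse. Most lines dip at the same mice (chow KO B, D and E, chow WT A, atherogenic KO C and D), and Cyp3a16 alone is split in chow WT mice.

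Genes that work with these enzymes were read from the same tests, where 3.89% of all probes were called higher in the average and 2.87% lower. Of 7 redox partner probes 1 rose in the average, Cyb5r3, a cytochrome b5 reductase (0.52, adjusted p = 0.0109, limma). Of 9 probes for haem synthesis and breakdown 1 rose, Alad (0.41, adjusted p = 0.0468), and 1 fell, Alas1, the rate-limiting enzyme of haem synthesis (-1.12, adjusted p = 0.0314). Of 13 probes for receptors and hepatocyte factors 1 rose, Ppara (0.46, adjusted p = 0.0204). The aryl hydrocarbon receptor gene Ahr differed by -0.32 (adjusted p = 0.332), the PXR gene Nr1i2 by 0.42 (0.146) and the CAR gene Nr1i3 by 0.11 (0.433). Of 18 probes for other targets of these receptors 1 rose, Gstt1 (0.40, adjusted p = 0.0328). The medians of these 4 lists were 0.07, 0.01, 0.11 and -0.10, against 0.01 over all probes.

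The diet was compared within each genotype by the intensity of the mouse channel after normalisation, in arbitrary units, since the 2 diets had different pools. Of the calls, 3 of 8 in KO livers and 6 of 10 in WT livers were Cyp2c probes, which made up 14 of the 53 tested. In KO livers 4 members rose and 4 fell of 53 (limma), against 5.12% and 4.58% of all probes and 9.7% in either direction. At an unadjusted p under 0.05 there were 19, against 27.2%, and 29 of 53 lay above 0, against 48.6%. In WT livers 2 rose and 8 fell, against 4.39% and 2.79% of all probes and 7.18% in either direction. At an unadjusted p under 0.05 there were 22, against 23.7%, and 18 of 53 lay above 0, against 44%. Cyp2c55, Cyp2c70, Cyp2c69, Cyp2ab1 and Cyp2r1 changed the same way in both genotypes.

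**Figure D4:**
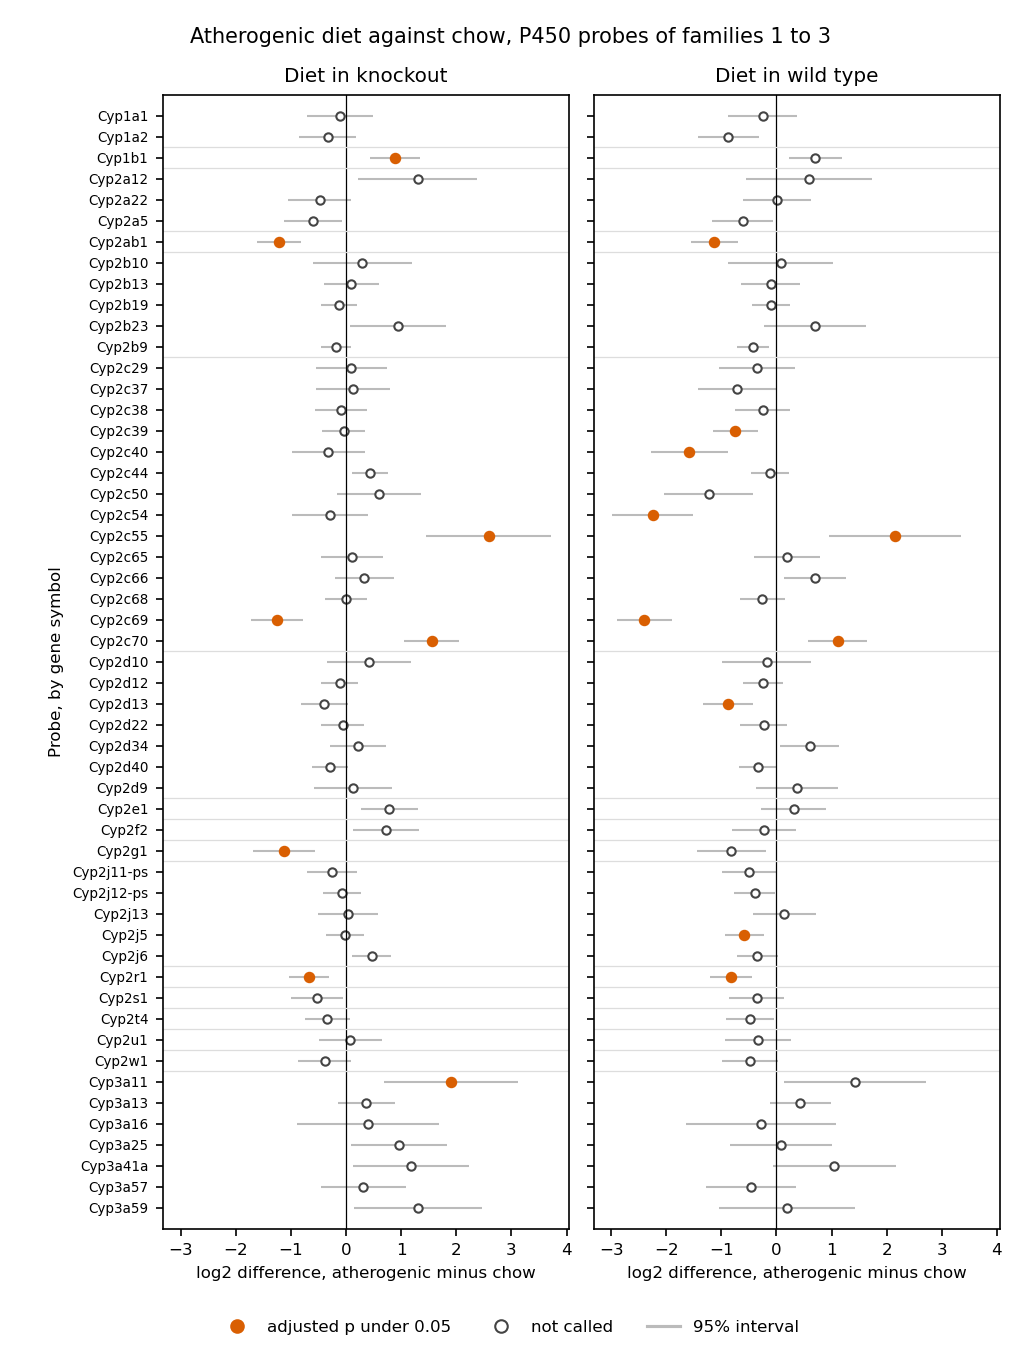
Log2 difference, atherogenic minus chow, of each of the 53 tested probes (rows, by subfamily) in KO and in WT mice, with 95% intervals. Filled points passed an adjusted p under 0.05, 8 in KO and 10 in WT mice, and the widest shifts are those of Cyp2c55 to the right and Cyp2c69 to the left.

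Cyp2c55, which hydroxylates arachidonic acid and is induced through CAR and PXR, had the largest rise of the 53 in both genotypes. Its intensity was 0.0861, 0.215, 0.18, 0.0665 and 0.326 in atherogenic KO mice, against 0.111, 0.0116, 0.0295, 0.0103 and 0.0238 in chow KO mice. In WT mice it was 0.0679, 0.259, 0.176 and 0.0992 on the atherogenic diet, against 0.0332, 0.0329, 0.0188, 0.033 and 0.034 on chow. It rose by 2.59 ± 0.54 in KO livers (adjusted p = 0.00583, limma) and by 2.16 ± 0.57 in WT livers (adjusted p = 0.0257). The WT groups did not overlap, chow KO A overlapped the atherogenic KO mice, and the chow values lie near the limit of the rounding, so the size of the fold is coarse. The 1 pool of each diet differed by 2.05, a value with no test.

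Cyp2c70, the enzyme that makes muricholic acids in mouse liver and one of the brightest members, had 24.2, 29, 21.9, 24.1 and 36.8 in atherogenic KO mice, against 10.4, 6.27, 13.3, 6.42 and 11.2 in chow KO mice. In WT mice it had 38.9, 18.6, 25.0 and 17.5 on the atherogenic diet, against 10.9, 13, 10.1, 8.80 and 12.7 on chow. Neither genotype overlapped between diets, and it rose by 1.55 ± 0.24 in KO livers (adjusted p = 0.000443, limma) and 1.11 ± 0.26 in WT livers (adjusted p = 0.0105).

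Cyp2c69 went the other way. It carries the same 9-base motif, whose part in either change was not tested. It had 1.34, 1.52, 1.32, 2.15 and 1.73 in atherogenic KO mice, against 5.05, 4.03, 5.33, 1.92 and 3.80 in chow KO mice. In WT mice it had 1.53, 1.55, 1.34 and 1.20 on the atherogenic diet, against 9.50, 6.15, 7.07, 6.69 and 7.98 on chow. It fell by 2.40 ± 0.24 in WT livers (adjusted p = 5.04e-06, limma) and by 1.26 ± 0.23 in KO livers (adjusted p = 0.00182), where chow KO mouse D overlapped. Without that mouse the fall in KO livers was 1.51 (difference -1.51, adjusted p = 3.9e-05). The KO and WT ranges overlapped on the atherogenic diet, and the pools differed by -2.66.

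Cyp2c40, which shares the printed upstream stretch with Cyp2c69, had 0.295, 0.442, 0.307 and 0.307 in atherogenic WT mice, against 0.937, 0.851, 0.985, 0.889 and 1.41 in chow WT mice. It fell by 1.58 ± 0.34 there (adjusted p = 0.00592, limma). In KO livers it differed by -0.32 (95% interval -0.98 to 0.34, adjusted p = 0.546), with 0.243 to 0.465 in atherogenic KO and 0.154 to 0.746 in chow KO mice. Without chow KO mouse D, the lowest of its group, the KO difference was -0.68 (adjusted p = 0.0833, limma). Cyp2c54 had 1.97, 1.46, 3.60 and 1.05 in atherogenic WT mice, against 6.88, 6.67, 14.3, 6.66 and 10.9 in chow WT mice. It fell by 2.25 ± 0.35 (adjusted p = 0.00041, limma), while in KO livers it had 5.26, 3.89, 3.43, 3.05 and 3.91 on the atherogenic diet, against 5.84, 5.53, 5.90, 2.02 and 6.03 on chow, and differed by -0.29 (95% interval -0.99 to 0.40). The KO difference of Cyp2c54 was -0.60 without chow KO mouse D (adjusted p = 0.218, limma). The pools differed by -2.37 for Cyp2c54 and -2.03 for Cyp2c40. Cyp2c39 fell by 0.75 ± 0.20 in WT livers (adjusted p = 0.0255, limma), with 0.110 to 0.192 on the atherogenic diet and 0.222 to 0.342 on chow. It differed by -0.05 in KO livers (95% interval -0.44 to 0.34), and by -0.20 without chow KO mouse D (adjusted p = 0.513, limma). The test of the genotype's difference between diets is the interaction given above, which was not called for these genes.

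**Figure D5:**
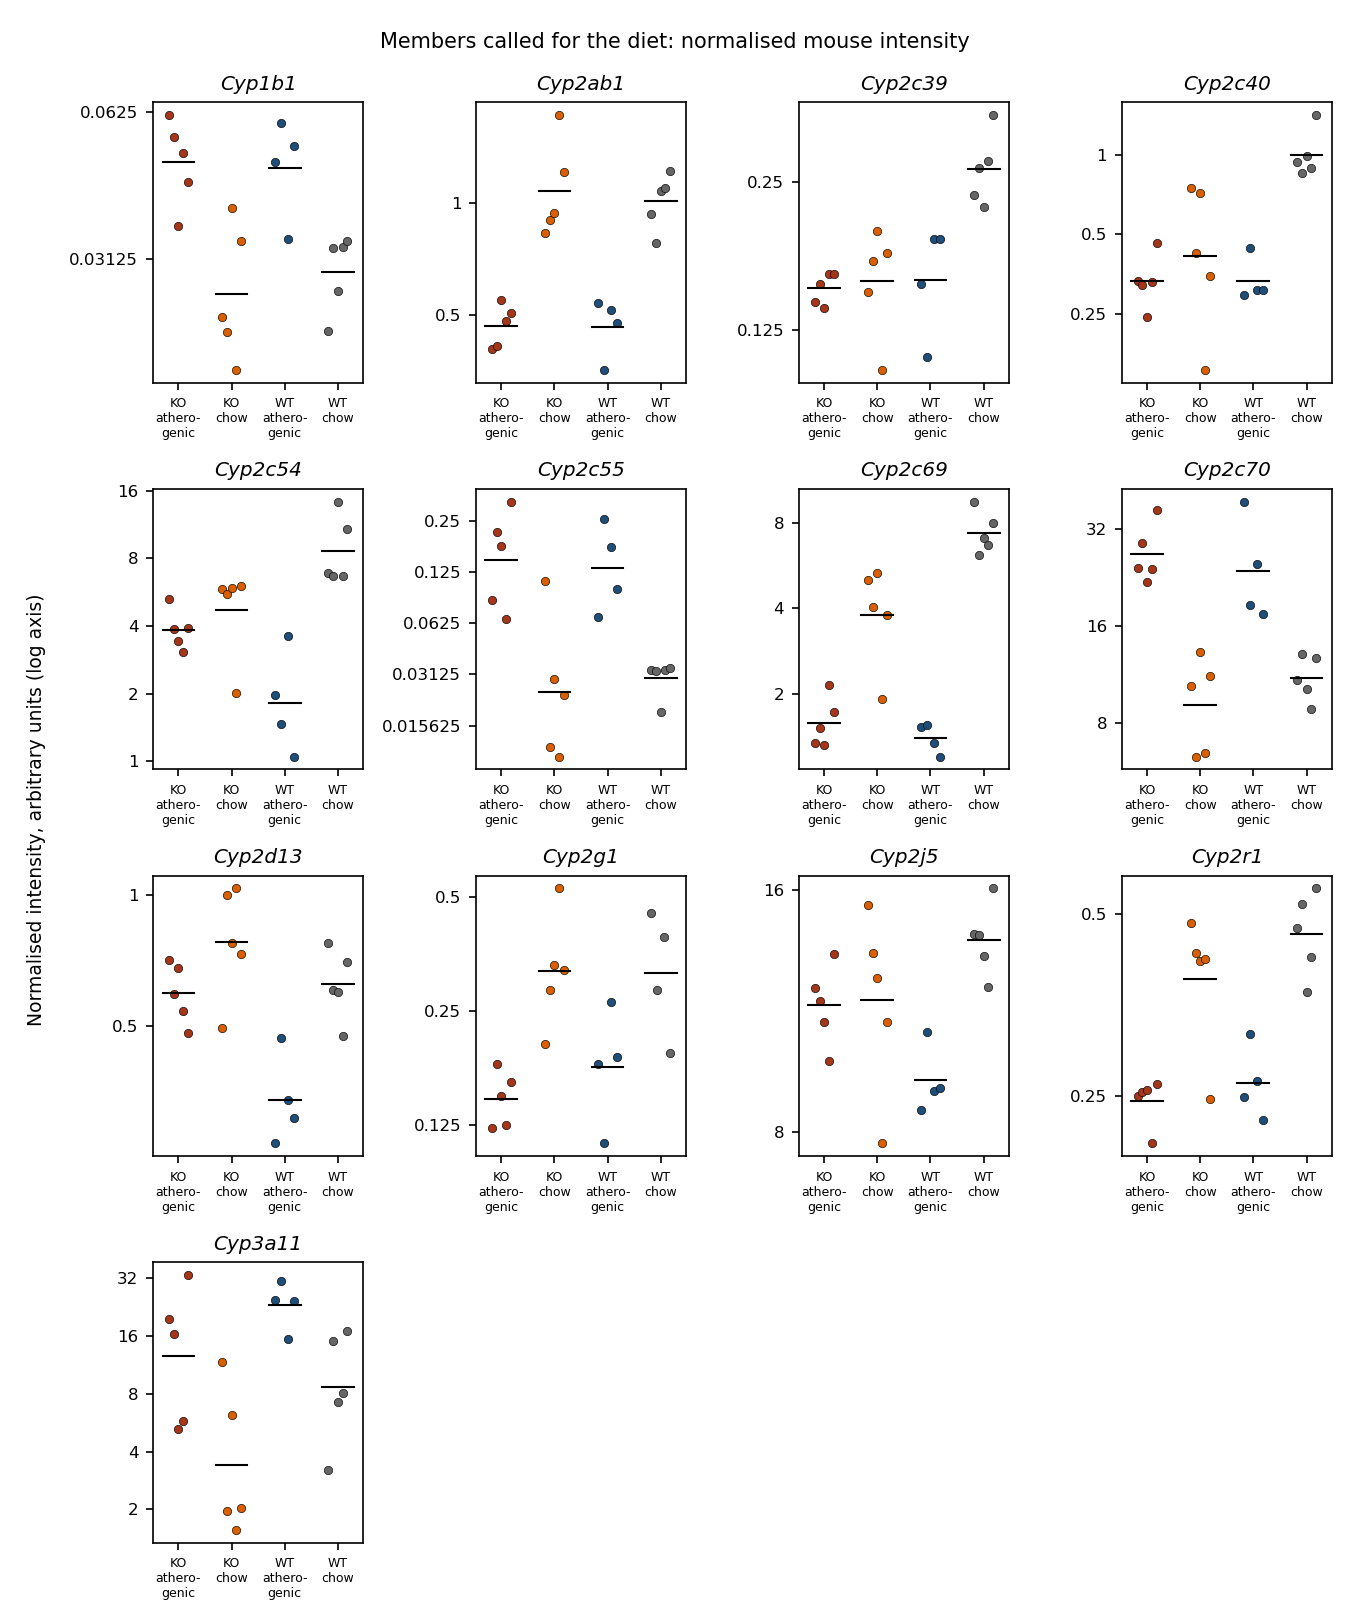
Normalised mouse intensity (log axis, arbitrary units) of the 13 members called for the diet in either genotype, with 1 point per mouse and a line at the geometric mean. Each genotype's atherogenic group stands left of its chow group, and Cyp2c69 lies between 1.20 and 2.15 in all 9 atherogenic mice.

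Outside Cyp2c, Cyp3a11 rose in KO livers by 1.90 ± 0.58 (adjusted p = 0.0444, limma). It had 19.7, 16.5, 5.22, 5.78 and 33.3 in atherogenic KO mice, against 11.7, 1.96, 6.22, 1.56 and 2.02 in chow KO mice. In WT mice it had 24.6, 30.9, 15.5 and 24.4 on the atherogenic diet, against 3.19, 15.2, 7.22, 8.09 and 17.1 on chow, a difference of 1.42 ± 0.62 (adjusted p = 0.165). The diets overlapped in both genotypes, and the pools differed by 0.28. Without chow KO mouse D the difference in KO livers was 1.62 (adjusted p = 0.109). The other Cyp3a probes were not called, and all 7 lay above 0 in KO livers and 5 of 7 in WT livers, with medians of 0.96 and 0.19. Cyp3a25 differed by 0.96 in KO livers and 0.08 in WT livers, and Cyp3a13 by 0.37 and 0.44. Their KO values were 0.41 for Cyp3a25 and 0.12 for Cyp3a13 without chow KO mouse D.

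Cyp2r1 had 0.250, 0.254, 0.255, 0.208 and 0.261 in atherogenic KO mice, against 0.483, 0.431, 0.418, 0.422 and 0.247 in chow KO mice. In WT mice it had 0.249, 0.316, 0.264 and 0.228, against 0.474, 0.520, 0.371, 0.423 and 0.551 on chow. It fell by 0.67 ± 0.17 in KO livers (adjusted p = 0.0194, limma) and 0.82 ± 0.18 in WT livers (adjusted p = 0.00815), and chow KO E, at 0.247, lay within the atherogenic range. Cyp2ab1 fell by 1.21 ± 0.19 in KO livers (adjusted p = 0.000569, limma) and 1.12 ± 0.20 in WT livers (adjusted p = 0.0016). It had 0.403 to 0.549 in atherogenic KO and 0.832 to 1.73 in chow KO mice, and 0.355 to 0.536 in atherogenic WT and 0.782 to 1.22 in chow WT mice. Cyp2g1, best known from the olfactory epithelium, fell by 1.12 ± 0.27 in KO livers (adjusted p = 0.0143, limma) and differed by -0.82 ± 0.30 in WT livers (adjusted p = 0.101), where 1 chow mouse had no value. Cyp1b1 rose by 0.89 ± 0.22 in KO livers (adjusted p = 0.0143, limma) and differed by 0.71 ± 0.23 in WT livers (adjusted p = 0.0659), at intensities of 0.0185 to 0.0616 in all 19 mice.

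Cyp2d13 fell in WT livers by 0.88 ± 0.22 (adjusted p = 0.0171, limma), with 0.269, 0.471, 0.339 and 0.308 on the atherogenic diet, against 0.777, 0.606, 0.600, 0.476 and 0.702 on chow. In KO livers it differed by -0.39 (95% interval -0.82 to 0.04). Cyp2j5 fell in WT livers by 0.58 ± 0.17 (adjusted p = 0.0454, limma), with 8.51 to 10.6 on the atherogenic diet and 12.1 to 16.1 on chow, and differed by -0.02 in KO livers (95% interval -0.36 to 0.32). In WT livers Cyp1a2 differed by -0.87 (adjusted p = 0.0502), Cyp2c50 by -1.23 (0.0596) and Cyp2b9 by -0.42 (0.0748). Cyp2e1 differed by 0.78 ± 0.24 in KO livers (adjusted p = 0.0524) and 0.31 ± 0.28 in WT livers, while its pools differed by -0.45; the 3 mice without a value are left out of its tests, as are those of Cyp2f2. Cyp2f2 differed by 0.73 in KO and -0.23 in WT livers, Cyp2a5 by -0.60 and -0.62, Cyp2a12 by 1.30 and 0.59, and Cyp2b10 by 0.29 and 0.07, each with an adjusted p over 0.05. In KO livers Cyp2a12 differed by 0.66 and Cyp2b10 by 0.17 without chow KO mouse D. In WT livers 12 of 53 members were lower without overlap between diets, against 8.05% of all probes, and 3 were higher, against 6.01%. In KO livers 2 were lower, against 4.03%, and 1 was higher, against 4.43%.

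Of the 7 tested probes of female-predominant members (Cyp2b9, Cyp2b13, Cyp2c39, Cyp2c40, Cyp2c69, Cyp3a16 and Cyp3a41a), 0 rose and 1 fell with the diet in KO livers, against 5.12% and 4.58% of all probes (limma). In WT livers 0 rose and 3 fell, against 4.39% and 2.79%. In the genotype average 2 of the 7 rose and 1 fell, against 3.89% and 2.87%. Without chow KO mouse D Cyp2c69 passed as lower in the average as well, as given above. The 3 tested male-predominant members, Cyp2d9, Cyp2f2 and Cyp2u1, were not called in any of these.

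Without chow KO mouse D 7 members were called for the diet in KO livers, against 7.91% of all probes, and the count was 13 without chow KO A, against 13.6%. In WT livers it was 6 without atherogenic WT A, against 3.79%. Cyp2r1 lost its call in KO livers without chow KO B (adjusted p = 0.0542). Cyp3a11 lost its call without atherogenic KO A, B or E, chow KO B, D or E, atherogenic WT A, B or D, or chow WT C or D (0.0504 to 0.123). In WT livers Cyp2c70 (adjusted p = 0.0583) and Cyp2d13 (0.0782) lost theirs without atherogenic WT A. Cyp2c39 lost its call without atherogenic WT A or B or chow WT D or E (0.0562 to 0.118), and Cyp2c55 without atherogenic WT B or C or chow WT C (0.0597 to 0.105). Cyp2j5 kept its call only without atherogenic KO D or E or chow KO A or D, and had 0.0525 to 0.14 without each other mouse. With median-centred mouse intensities Cyp3a11 (adjusted p = 0.0730, limma) and Cyp2r1 (0.141) lost their calls in KO livers. Cyp2c70 then differed by 0.67 in WT livers (0.111). With only the 2 groups fitted Cyp3a11 (0.112), Cyp2r1 (0.0752) and Cyp1b1 (0.0562) lost theirs in KO livers. Cyp3a11 also lost its call with 0.05 added to both intensities (0.0553).

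Some other genes of the pathway were also called for the diet. Over all probes 5.12% rose and 4.58% fell in KO livers, and 4.39% rose and 2.79% fell in WT livers. Of 18 probes for other targets of CAR, PXR and the aryl hydrocarbon receptor 5 rose and 1 fell in KO livers, and 2 rose and 1 fell in WT livers (limma), with medians of 0.37 and 0.19. Akr1b7, an aldose reductase relative, rose by 3.45 in KO livers (adjusted p = 8.2e-05) and 3.21 in WT livers (adjusted p = 0.000129), and Abcb1a, a drug exporter, by 0.91 (0.0108) and 1.90 (2.06e-05). Of 13 probes for receptors and hepatocyte factors 0 rose and 1 fell in KO livers, and 1 rose and 0 fell in WT livers (limma). The CAR gene Nr1i3 fell by 0.59 in KO livers (adjusted p = 0.0327) and differed by -0.59 in WT livers (adjusted p = 0.0512). Nr0b2, a repressor induced by bile acids, rose by 1.31 in WT livers (adjusted p = 0.0115). It was not called in KO livers, where the highest difference in this list was 0.55. Of 5 flavin monooxygenase probes 1 rose and 1 fell in KO livers and 1 rose in WT livers, among them Fmo5 (1.54 and 1.32, adjusted p = 0.000147 and 0.000937). Over all probes the medians were -0.01 in KO and -0.06 in WT livers.

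Markers of other cells moved with the diet, where 5.12% of all probes rose in KO and 4.39% in WT livers. At an unadjusted p under 0.05 there were 27.2% and 23.7% of all probes. Of 12 macrophage and Kupffer cell probes 11 rose in KO livers and 11 in WT livers, and their summed intensity was 27.5 to 42.6 in atherogenic KO and 7.67 to 12.9 in chow KO mice, and 28.7 to 34.0 in atherogenic WT and 9.16 to 15.8 in chow WT mice. Of 13 acute-phase probes 6 rose in KO and 9 in WT livers, and of 9 neutrophil probes 0 rose in KO and 4 in WT livers. Of 9 stellate cell and fibrosis probes 4 rose in KO and 5 in WT livers. Of the 6 hepatocyte probes 0 were called in either genotype (limma; 0 and 2 at an unadjusted p under 0.05), and their sums were 58.3 to 141 in atherogenic KO and 32.2 to 124 in chow KO mice, and 80.2 to 119 in atherogenic WT and 86.1 to 139 in chow WT mice. The part of these markers in the P450 differences was not tested.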

How the data were processed

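Liver RNA (100 ng, amplified in 2 rounds, per the labels' protocols) was hybridised with the mouse in Cy5 and the WT pool in Cy3. Per the submitters' processing notes, the scans were quantified in Feature Extraction 8.5.1.1. The authors deposited an intensity per channel for 19 arrays and 23568 probes, with a median log2 ratio of 0 on each array; how background and dye were corrected is not given in those notes. A second deposited table holds log10 of mouse over pool; each of its 19 columns equals an array of its group within 0.005. Table columns name groups but not replicate numbers.

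For genotype, log2(mouse/pool) was fitted over the 4 groups in limma 3.58.1 (R 4.3.3, lmFit and eBayes). For diet, log2 mouse intensities after loess within and Aquantile between arrays were fitted likewise. Probes needed 3 values per group, p-values were adjusted over 23344 probes, and a call is an adjusted p under 0.05. The number of mice limits the precision. Named members are those called, the brightest of each subfamily and a fixed set of well-known ones. Cyp2c50, Cyp3a16, Cyp3a41a, Cyp3a57 and Cyp3a59 were named after their values were seen, as were the motifs. The members and gene lists were chosen with earlier results of these data known. The fit was first tested on simulated data. Of simulated 2-fold changes it recovered 76% for genotype on chow, 74% on the atherogenic diet and 92% in the average. For the diet it recovered 70% in KO and 38% in WT livers, so a missing call does not show that a gene did not change. Upstream sequences are from RefSeq (GRCm38.p6): all 55 genes matched a RefSeq symbol, 3 through a synonym, and 47 had a window. Alternatives were other normalisations, offsets, filters, weights and models, and leaving out each mouse.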

Additional observations from a re-analysis of the deposited data

Results flagged for a closer look

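Of 130 sets of log2 ratios (33 members within a group) 11 held 1 mouse far from the others by Dixon's criterion, which chance meets in about 1 of 20 sets. Chow KO mouse D was that mouse in 4 sets: Cyp1a2 at 1.42 (others 0.26 to 0.54), Cyp2a5 at 0.85 (0.12 to 0.24), Cyp2c54 at -2.19 (-0.71 to -0.63) and Cyp3a13 at -1.57 (-0.37 to 0.07). In the other 7 sets the probe was dim and every other mouse of the group was exactly 0. These were Cyp1b1 in chow WT A at -0.58, Cyp2c55 in chow WT C at -0.58, Cyp2s1 in atherogenic WT A at -0.32 and in chow WT A at 0.22, Cyp2u1 in chow KO A at -0.42 and in chow WT B at 0.42, and Cyp2w1 in atherogenic WT B at 0.42.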

How the results depend on the processing

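The 28 calls of single members were repeated 796 times under other settings: 675 kept the call, 121 lost it and 0 changed sign. The counts of members called moved by over 1.5 times as follows. On chow, 2 became 0 with quantile normalisation of the ratios (0% of all probes) and with robust eBayes and a trend (0.00428%). The chow count was also 0 with only the 2 groups fitted (0.0214%) and with the replicate block (0.129%). It was 4 without the dimmest probes (6.73%) and 4 with array weights (4.18%). On the atherogenic diet, 0 became 4 with array weights (1.67% of all probes). In the average, 8 became 2 with quantile normalisation (3.97% of all probes) and 13 with array weights (14.9%). For the diet in KO livers, 8 became 5 with only the 2 groups fitted (3.56% of all probes). With the shared number of the animal mark as a random block, chosen after seeing the data, the counts were 9 on chow (12.5% of all probes), 1 on the atherogenic diet (0.146%) and 13 in the average (14.5%); mice that share a mark did not deviate together (estimated correlation -0.10 for the ratios and -0.08 for the mouse channel). The interaction gave 0 under every setting run. Leaving out single mice gave 0 to 15 on chow, 0 to 1 on the atherogenic diet, 1 to 14 in the average, and for the diet 6 to 13 in KO and 6 to 14 in WT livers. The cause was not tested, except that fewer probes or mice enter some fits.

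The replicate numbers did not pair the mice: same-numbered KO and WT mice correlated from -0.43 to 0.10 in their deviations. The replicate block used the second deposited table. No paired analysis was possible for the diet by replicate number because the names of the intensity columns carry none and the second table holds only ratios. The mark block gave 11 for the diet in KO livers (14.8% of all probes) and 14 in WT livers (10.1%). Dim probes are limited by the rounding of the intensities.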
